A study of Rattus norvegicus with 36 samples.

Results

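The genes described here are the chemokines and their receptors measured in the distal ileum and the proximal colon of the UCD-T2DM rat, a model of type 2 diabetes. They were taken by symbol, as every gene of the raw count table named Ccl, Cxcl, Cx3cl, Xcl, Ccr, Cxcr, Cx3cr or Ackr with a number, leaving aside Cxcl10, Cxcl11, Cxcl13, Cxcr5, Ccr7 and Ccl20. This gave 46 of 24773 genes: 30 ligands, 13 receptors and 3 atypical receptors. Of the ligands, 19 were of the CC class, 9 of the CXC class and 2 of the XC or CX3C classes. Ccr2 and Ackr1 are not analysed here.

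The UCD-T2DM rat is an obese, insulin-resistant rat in which adult-onset diabetes arises spontaneously on chow, so the D3M, D1M and ND groups carry the same background and differ in no added allele or drug. Ileum and colon were sequenced from each of 18 male rats, 6 in each group. The D3M rats (labelled LD) had been diabetic for 88 to 116 days and were 172 to 173 days old, the D1M rats (labelled RD) had been diabetic for 22 to 23 days and were 168 to 172 days old, and the ND rats were not diabetic and were 70 days old. The model has no lean or genetically matched non-diabetic strain in this design, and since ND rats were also the youngest, age and diabetes cannot be told apart in D3M or D1M against ND. Rats were fasted before tissue collection. Whole tissue was sequenced, so fewer cells of a type and less RNA per cell cannot be told apart in any value below.

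Chemokines are small secreted proteins that steer leukocytes along concentration gradients, and they are classed by the spacing of their first cysteines. Their receptors are G-protein-coupled receptors on leukocytes and some tissue cells, while atypical receptors bind chemokines without G-protein signalling and clear or redistribute them. In the gut, Ccl25 is made by the epithelium of the small intestine and draws lymphocytes that carry Ccr9, Ccl28 is made by mucosal epithelia and draws cells that carry Ccr10, Ccl19 and Ccl21 gather lymphocytes in lymphoid tissue, and Cxcl12 is a stromal ligand of Cxcr4.

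The promoters of 6 members that carry the main contrasts are printed from the RefSeq promoter table (build GRCr8, a later build than the rn6 of the count files), as the 200 bases before the annotated start, 5′ to 3′ on the strand of the gene. Ccl25 had the largest difference between the tissues and Cxcl12 was lower in D3M ileum; Ccl7 and Ccl12 stand in a gene cluster that was higher in colon, and Ccl6 and Ccl9 in a neighbouring cluster in which no gene was. Capitals mark matches, on either strand, to a TATA string (TATAAA) or to an NF-kB-like string (GGG and TTCC with any 3 bases between them), and no matches overlap here.
Ccl25: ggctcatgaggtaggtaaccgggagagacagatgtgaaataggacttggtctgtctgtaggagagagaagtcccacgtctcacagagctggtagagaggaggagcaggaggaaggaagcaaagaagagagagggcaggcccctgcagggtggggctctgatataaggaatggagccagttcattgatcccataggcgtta
Cxcl12: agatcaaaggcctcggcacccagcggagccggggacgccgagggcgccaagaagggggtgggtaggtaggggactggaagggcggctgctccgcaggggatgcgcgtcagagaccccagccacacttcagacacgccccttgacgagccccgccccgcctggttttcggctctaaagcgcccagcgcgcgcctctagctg
Ccl7: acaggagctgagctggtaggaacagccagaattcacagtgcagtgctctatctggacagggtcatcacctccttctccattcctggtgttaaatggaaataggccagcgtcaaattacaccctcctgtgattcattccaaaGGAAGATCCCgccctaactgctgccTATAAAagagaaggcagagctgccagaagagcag
Ccl12: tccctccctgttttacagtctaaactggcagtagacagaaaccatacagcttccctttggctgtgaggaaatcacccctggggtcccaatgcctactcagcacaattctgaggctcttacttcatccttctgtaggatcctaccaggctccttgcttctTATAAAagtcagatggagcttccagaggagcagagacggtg
Ccl6: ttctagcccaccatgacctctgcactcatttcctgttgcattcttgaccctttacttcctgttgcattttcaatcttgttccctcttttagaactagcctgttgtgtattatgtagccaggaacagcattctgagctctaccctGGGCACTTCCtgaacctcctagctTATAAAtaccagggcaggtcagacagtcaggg
Ccl9: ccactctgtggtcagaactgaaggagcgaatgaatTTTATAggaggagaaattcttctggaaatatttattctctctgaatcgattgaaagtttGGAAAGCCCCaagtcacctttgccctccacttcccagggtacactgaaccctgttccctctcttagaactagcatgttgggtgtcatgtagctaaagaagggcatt
The windows lie at chr12:7505035-7505234 (plus strand, Ccl25), chr4:152060581-152060780 (plus, Cxcl12), chr10:67513895-67514094 (plus, Ccl7), chr10:67567676-67567875 (plus, Ccl12), chr10:68883367-68883566 (minus, Ccl6) and chr10:68868878-68869077 (minus, Ccl9). The TATA string began at -34 in Ccl7, -41 in Ccl12, -32 in Ccl6 and -165 (on the opposite strand) in Ccl9, counted from the start. The NF-kB-like string began at -59 in Ccl7, -56 in Ccl6 and -106 in Ccl9, and neither string was found in the windows of Ccl25 and Cxcl12. Of 36 members with a promoter in the table, 8 held the TATA string (22.2%), against 3478 of all 33469 promoters (10.4%). The NF-kB-like string was in the promoters of 7 of the 36 members (19.4%: Ccl6, Ccl7, Ccl9, Ccr3, Cxcl1, Cxcl2 and Cxcl6), against 1248 of 33469 promoters (3.73%). These matches describe letters, and were not compared with any measured binding.

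Libraries held 10024041 to 18299050 counts in colon and 12279059 to 21510043 counts in ileum. Levels below are in CPM, counts divided by the TMM-scaled library size on a common scale for the 36 libraries, which are not divided by transcript length, so an order of genes by CPM is one of reads and not of transcript levels. A member was called where the Benjamini-Hochberg adjusted p (FDR) of the edgeR quasi-likelihood test over all genes was under 0.05. In the colon of ND rat K4028 the ileal bile acid-binding protein gene Fabp6 reached 8191 CPM, where the remaining colons had 1.89 to 19.9 CPM. In the ileum of ND rat K4040 the colonic carbonic anhydrase Car1 reached 3863 CPM, where the ileum of D3M rat P762 had 1494 CPM and the remaining ilea 2.51 to 146 CPM. The libraries of K4028 and K4040 are called the mixed libraries here, since they carried marker RNA of the neighbouring tissue. The ileum of P762 also stood apart, at a summed 2075 CPM of colonic identity genes against 4971 CPM in K4040 and at most 769 CPM in the others, and was left out with the mixed ones in a fit added after seeing the data. The 8 ileal identity genes were all lower and the 6 tested colonic identity genes all higher in colon than in ileum, with medians of -7.74 and 7.16 on the log2 scale.

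Enough counts for testing were found for 32 members in colon, 31 in ileum and 33 in the fit of both tissues. Ccl12 and Ccl27 were tested in colon only, and Ccr9 in ileum only, when each tissue was fitted on its own. The 13 members below the filter in both tissues were Ackr2, Ccl1, Ccl26, Ccr3, Ccr4, Ccr8, Cxcl1, Cxcl2, Cxcl3, Cxcl6, Cxcl17, Cxcr1 and Cxcr2. Their highest value in any library was 1.47 CPM, for Cxcl1. The neutrophil members (Cxcl1, Cxcl2, Cxcl3, Cxcl6 and their receptors Cxcr1 and Cxcr2) were all among these, and Cxcr2 had 0 of 591649098 counts in the 36 libraries, which allows up to 0.00508 CPM (3 counts; counting error only). Ccl26, an eosinophil attractant, had 0 counts in the 18 colon libraries, where 3 counts over the group would be 0.0106 CPM. In the 18 ileum libraries it had 48 counts or 0.156 CPM, spread over 14 of them. That is 14.7-fold above the level of 3 colon counts, with the ileal counts taken as exact. When all genes with any count were fitted by edgeR, 45 members were tested between the tissues, and 7 of these low ones were called. Cxcr1 (2.36, FDR 0.00199), Cxcl1 (1.16, FDR 0.0192), Cxcl2 (1.53, FDR 0.0386) and Ackr2 (2.04, FDR 0.00465) were higher in colon, and Cxcl6 (-2.82, FDR 8.15e-05), Cxcl17 (-1.54, FDR 0.0213) and Ccl26 (FDR 3.16e-05) were lower. Their mean levels were under 1 CPM in both tissues, such as 0.141 CPM in colon and 0.0241 CPM in ileum for Cxcr1. The calls rest on few counts, such as 7 ileal counts for Cxcr1, 15 for Ackr2 and 6 colonic counts for Cxcl6. The share of all genes called in this unfiltered fit is not given here, and it was 73.2% of 13697 genes with the filter. The number called therefore does not set these members apart.

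The members drew fewer reads in colon than in ileum, where most of them came from Ccl25. The mean CPM of the 46 members summed to 665 in colon and to 1689 in ileum, and Ccl25 made up 58.1% of the ileal sum. The members with the highest mean CPM in colon were Ccl21 (21.0% of the sum), Cx3cl1, Cxcl14, Cxcl16, Cxcr4 and Ccl6, and in ileum Ccl25, Cxcl14, Cx3cl1, Cxcl16, Ccl21 and Ccl6. The colonic means of Ccl21 (140 CPM) and Cxcr4 (28.0 CPM) stood above their medians (78.7 and 13.5 CPM), and their high values lay in the 5 colons of high B cell score described with the lymphoid members. By mean, 12 members in colon and 13 in ileum had 10 CPM or more, and 20 in colon and 19 in ileum had under 1 CPM. Of the 12, Ccl25 had a colonic mean of 21.6 CPM that was 1.81 CPM without rat K4028, and Ccl19 a mean of 17.8 and a median of 0.392 CPM.

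Between the tissues, 25 of the 33 tested members were called, 8 higher and 17 lower in colon. That share of 75.8% stands beside 73.2% of all 13697 genes tested, so the number called does not set the members apart. Their median was -0.56 on the log2 scale, with 11 positive and 22 negative values, while the median of all genes was 0.03. With the rat as a block, which uses that each rat gave both tissues, 23 members were called, 5 higher and 18 lower.

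**Figure D1:**
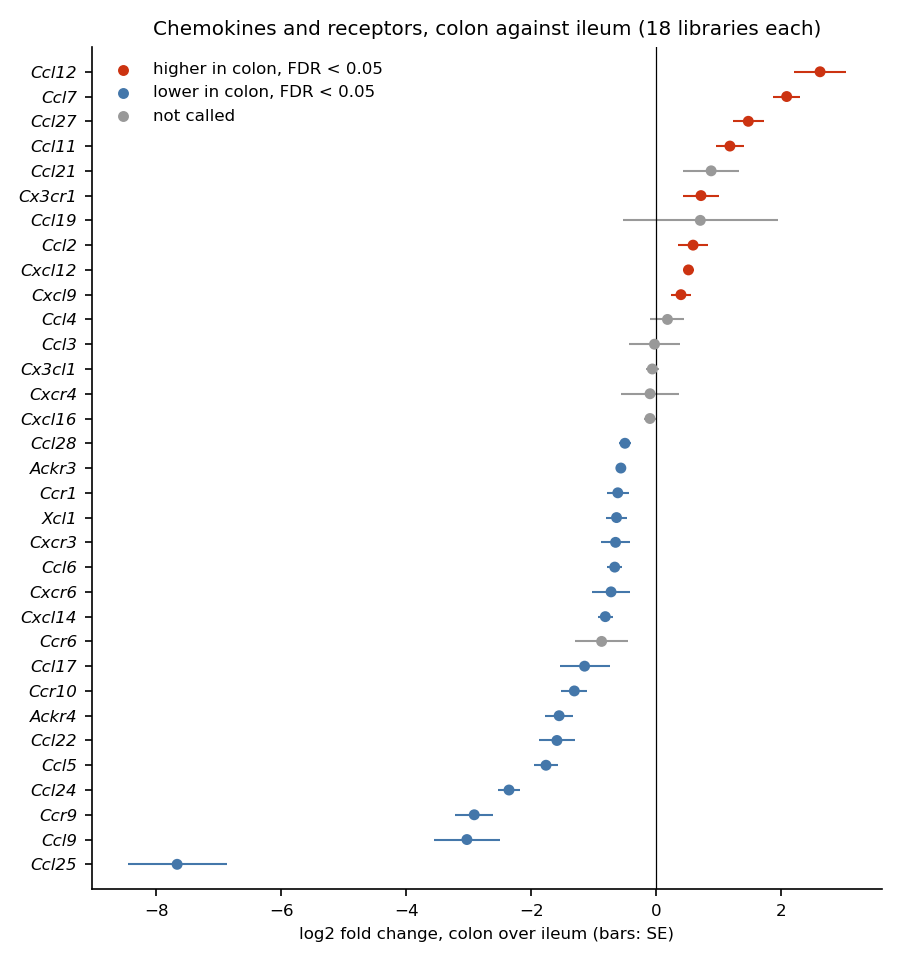
Log2 fold change of colon over ileum (horizontal axis) for each of the 33 tested members, with bars of 1 SE from the edgeR fit of 36 libraries. Points in red are higher and points in blue lower in colon at FDR under 0.05, from 2.63 for Ccl12 to -7.67 for Ccl25.

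The 4 tested gut homing members were all lower in colon. Ccl25 had 0.161 CPM in the lowest, 1.37 in the median and 358 in the highest colon library, against 715, 944 and 1358 CPM in ileum. The 358 CPM belonged to the ND library of rat K4028 that held Fabp6, and the other 17 colon libraries had at most 5.12 CPM, so that no colon library reached any ileum library. The log2 fold change was -7.67 (SE 0.79, FDR 3.41e-10), and -9.09 without the 2 mixed libraries. Ccr9, the receptor of Ccl25, had 0.0537, 0.454 and 2.22 CPM in colon (lowest, median and highest), against 2.00, 4.56 and 8.07 CPM in ileum. Its fold change was -2.91 (SE 0.30, FDR 2.24e-10), and the ranges met only at their ends.

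Ccl28 had 11.2, 15.3 and 32.7 CPM in colon and 16.0, 22.2 and 34.8 CPM in ileum, a difference of -0.50 (SE 0.10, FDR 2.69e-05) with wide overlap. Its receptor Ccr10, which marks IgA plasma cells, had 0.257, 0.621 and 1.14 CPM in colon and 0.531, 1.34 and 3.40 CPM in ileum (-1.31, SE 0.21, FDR 1.24e-06). The plasma cell markers moved in the same direction, with 6 of 6 tested markers lower in colon (median -1.39) and a summed level of 262 to 466 CPM in colon, against 661 to 1491 CPM in ileum. Their part in the Ccr10 difference was not tested.

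**Figure D2:**
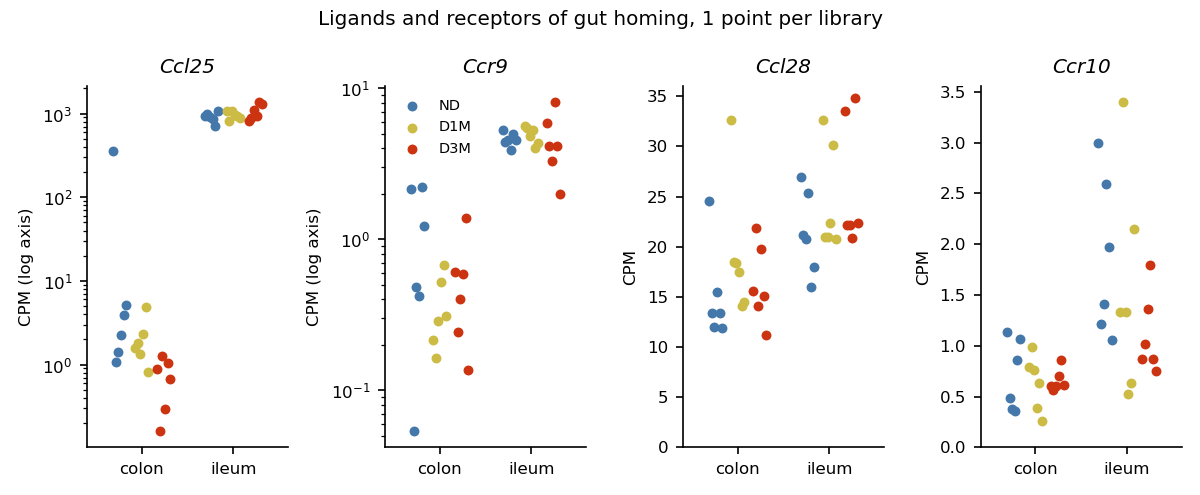
Level of the gut homing ligands Ccl25 and Ccl28 and of their receptors Ccr9 and Ccr10 in each library (vertical axis, CPM, on a log scale for Ccl25 and Ccr9), in colon and ileum, with ND, D1M and D3M rats side by side. For Ccl25 1 colon library, ND rat K4028 at 358 CPM, stands far above the other 17, which had at most 5.12 CPM.

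The eosinophil attractants Ccl11 and Ccl24, which share the receptor Ccr3, differed in opposite directions. Ccl11 (eotaxin) had 9.99, 24.4 and 50.0 CPM in colon (lowest, median and highest), against 2.82, 12.2 and 22.4 CPM in ileum, and was higher in colon by 1.18 on the log2 scale (SE 0.23, FDR 2.81e-05). Ccl24 (eotaxin-2) had 2.18, 4.44 and 14.4 CPM in colon, against 18.1, 22.4 and 39.3 CPM in ileum, and its ranges did not overlap (-2.35, SE 0.17, FDR 4.44e-14).

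Of the 9 tested monocyte and inflammatory members, 3 were higher and 4 lower in colon. Ccl2, Ccl7 and Ccl12, all ligands of the monocyte receptor Ccr2, were the higher ones. Ccl7 had 2.05, 3.42 and 8.53 CPM in colon, against 0.318, 0.834 and 2.10 CPM in ileum (2.09, SE 0.22, FDR 2.56e-10), and the ranges barely overlapped. Ccl12 was low in both tissues, at 0 to 3.66 CPM in colon (median 0.659) and 0 to 0.315 CPM in ileum (median 0.149), with a difference of 2.63 (SE 0.42, FDR 1.03e-06). Ccl2 had 2.70, 4.64 and 18.4 CPM in colon and 1.56, 4.21 and 9.60 CPM in ileum. Its difference of 0.59 (FDR 0.0284) was no longer called with the rat as a block (0.46, FDR 0.120).

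The lower ones were Ccl5, Ccl6, Ccl9 and Ccr1. Ccl5 (RANTES), an attractant of T cells and monocytes, had 4.75, 7.83 and 16.5 CPM in colon, against 7.18, 29.7 and 59.6 CPM in ileum (-1.76, SE 0.19, FDR 5.36e-10). Ccl9, a rodent ligand of Ccr1, had 0.161, 0.659 and 4.27 CPM in colon and 0.362, 2.46 and 35.0 CPM in ileum (-3.03, SE 0.53, FDR 5.47e-06), with a spread in ileum that is described with the lymphoid members. Ccl6, another rodent ligand of Ccr1, differed by -0.66 (FDR 7.43e-06) and Ccr1 itself by -0.61 (FDR 0.00235). Ccl3 and Ccl4, the macrophage inflammatory proteins, had differences of -0.02 and 0.18 that were not called.

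Among 7 tested T cell and dendritic cell members, 5 were lower and 1 higher in colon. Ccl22 and Ccl17, dendritic cell and macrophage ligands of Ccr4, differed by -1.59 (SE 0.28, FDR 8.38e-06) and -1.14 (SE 0.40, FDR 0.0110). Cxcr6 differed by -0.72, Cxcr3 by -0.65 and Xcl1 by -0.63 (FDR 0.0300, 0.0130 and 0.00101), and these are genes of effector T cells, natural killer cells or both. Cxcr6 and Cxcr3 were not called with the B cell score as a covariate (-0.58 and -0.32, FDR 0.0530 and 0.0782) or with the fibroblast score (-0.82 and -0.28, FDR 0.0864 and 0.428). Cxcr6 was also lost without flow cell 2 (FDR 0.0995) and without rat K3961, K3978, K3986, K3990 or K4040 (FDR 0.0509 to 0.0949), Cxcr3 without rat K3986 (FDR 0.0574) and without the flow cell term (FDR 0.0605), and Xcl1 without flow cell 2. Cxcl9, the interferon-induced ligand of Cxcr3, was the only higher one at 0.40 (FDR 0.0241), and was lost with the rat as a block (0.37, FDR 0.0615). Cxcl16, the membrane-bound ligand of Cxcr6, had 59.3, 88.6 and 120 CPM in colon and 64.3, 90.6 and 140 CPM in ileum, and its difference of -0.10 (95% interval -0.29 to 0.10) was not called. T cell markers were lower in colon for 8 of 12 tested genes and higher for 1 (median -1.06), at a summed 23.6 to 247 CPM in colon and 34.6 to 226 CPM in ileum. Their part in the differences of these members was not tested.

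Of the remaining members, Cxcl12 was higher in colon (0.52, SE 0.09, FDR 1.06e-05), at 13.1, 21.4 and 36.2 CPM in colon and 7.80, 16.2 and 20.1 CPM in ileum. Ackr3, an atypical receptor that scavenges Cxcl12, was lower (-0.56, SE 0.08, FDR 4.66e-08), at 16.4, 22.9 and 30.0 CPM in colon and 27.2, 32.4 and 44.3 CPM in ileum. Cxcr4, the signalling receptor of Cxcl12, differed by -0.10 (SE 0.46) and was not called, but was higher in colon with the B cell score of each library, defined with the lymphoid members, as a covariate (0.45, SE 0.12, FDR 0.00143). In that fit Ccl19 and Ccl21 were also higher in colon (1.85 and 1.49, FDR 3.25e-06 and 4.93e-06), where without the covariate they had 0.71 and 0.88 and were not called. Ackr4, the scavenger of Ccl19, Ccl21 and Ccl25, was lower (-1.55, SE 0.22, FDR 1.74e-07), at a median of 0.764 CPM in colon and 2.54 CPM in ileum. Cxcl14, an epithelial chemokine, was lower (-0.81, SE 0.12, FDR 5.82e-07), at a median of 96.3 CPM in colon and 157 CPM in ileum, and Ccl27, the skin-associated ligand of Ccr10, was higher (1.48, SE 0.25, FDR 2.58e-06), at a median of 1.19 CPM in colon and 0.418 CPM in ileum.

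Cx3cl1 (fractalkine) was not called between the tissues, with medians of 108 CPM in colon and 105 CPM in ileum and a difference of -0.06 (95% interval -0.26 to 0.15, FDR 0.617). Its receptor Cx3cr1, carried by resident macrophages, was higher in colon by 0.72 (FDR 0.0237), at medians of 1.17 CPM in colon and 0.675 CPM in ileum, and was not called with the rat as a block (0.67, FDR 0.0649) or without the 2 mixed libraries (0.64, FDR 0.0526).

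Neighbouring genes showed tissue differences of the same sign in several chemokine clusters, in the coordinates of the count files (rn6). On chromosome 10, Ccl2, Ccl7, Ccl11 and Ccl12 lie between 69412017 and 69478462, and all were higher in colon. Further along, Ccl5, Ccl9 and Ccl6 lie between 70739800 and 70802782 and were all lower in colon, with the uncalled Ccl3 and Ccl4 after them, between 70869513 and 70886355. On chromosome 8, Ccr9, Cxcr6 and Ccr1 lie between 132828091 and 133002201 and were all lower in colon. On chromosome 19, Ccl17 and Ccl22 were lower, while Cx3cl1, which lies between them at 10644244 to 10653800, was not called. These signs are a description of the listed genes and were not tested. The sources used here do not state how reads that map to several places were counted, so values of closely related neighbours such as Ccl2, Ccl7 and Ccl12, or Ccl6 and Ccl9, carry that uncertainty.

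In the ileum of D3M against ND rats, 2 of 31 members were called, and both were lower in D3M. That is 6.45% of the members, beside 12.5% of all 13026 genes tested, of which 1082 were higher and 550 lower. The members' median was -0.13 on the log2 scale (11 positive, 20 negative), beside -0.08 over all genes.

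**Figure D3:**
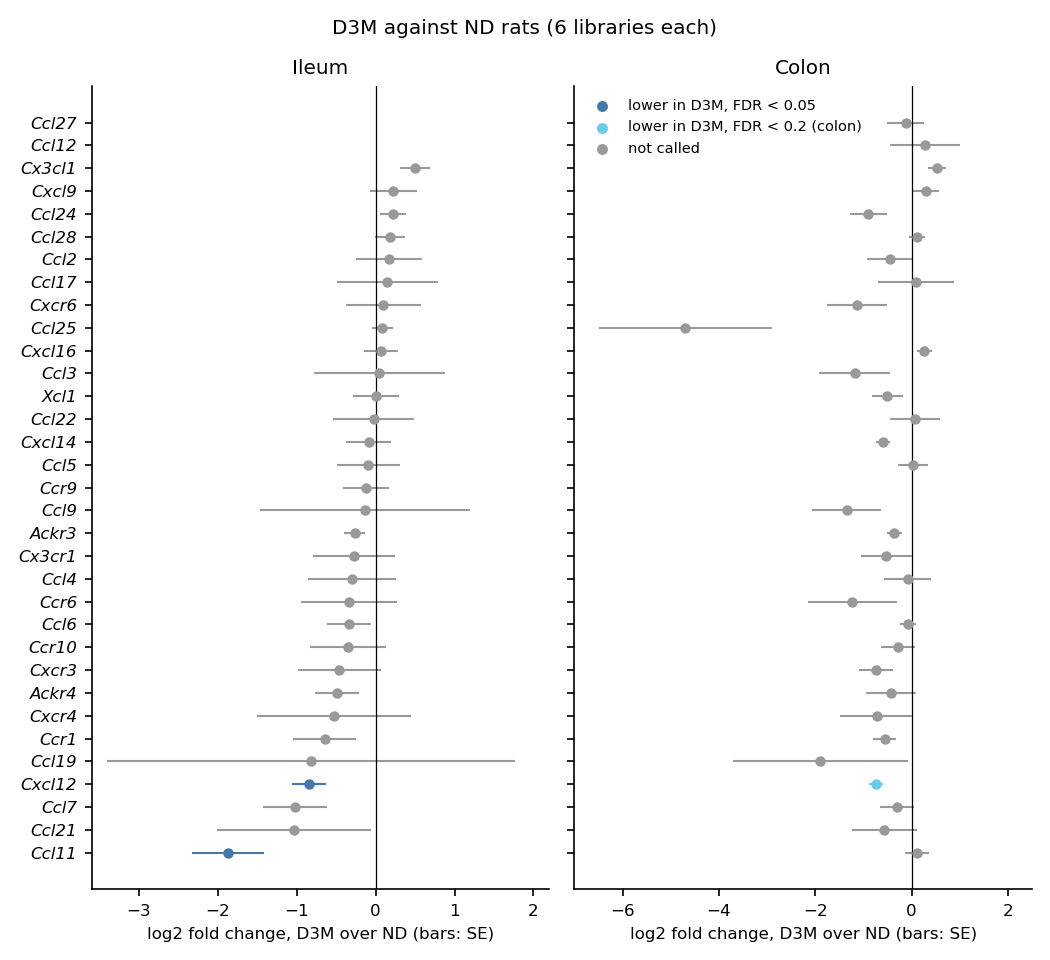
Log2 fold change of D3M over ND rats (horizontal axis, 6 libraries a group) for each tested member in ileum (left) and colon (right, on a wider scale), with bars of 1 SE from the edgeR fit of each tissue. Blue marks the ileal calls, Ccl11 at -1.87 and Cxcl12 at -0.84, and light blue marks Cxcl12 in colon at -0.74, which passed only the liberal FDR of 0.2.

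Ccl11 had 8.25, 4.62, 6.32, 14.6, 2.82 and 3.06 CPM in the ileum of the 6 D3M rats, against 15.4, 22.4, 13.2, 21.0, 8.92 and 15.5 CPM in the ileum of the ND rats. D3M rat K3980, at 14.6 CPM, lay within the ND range, and ND rats K4047 and K4038, at 8.92 and 13.2 CPM, lay within the D3M range, so the groups overlapped. The means were 6.60 ± 4.40 CPM in D3M and 16.1 ± 5.01 CPM in ND (SD, n = 6 each), and the log2 fold change was -1.87 (SE 0.46, FDR 0.0174 by edgeR). In D1M rats Ccl11 stood between, at a mean of 11.3 ± 4.16 CPM. Ccl11 draws eosinophils, and the granulocyte markers, which include eosinophil genes, had a summed level of 0.869 to 3.65 CPM in D3M ileum and 3.71 to 5.18 CPM in ND ileum, with 0 of 2 tested markers called by edgeR and 2 at an unadjusted p under 0.05 (median -1.03). Their part in the Ccl11 difference was not tested.

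Cxcl12 had 10.6, 11.3, 12.0, 16.3, 10.9 and 7.80 CPM in D3M ileum, against 15.6, 19.4, 18.4, 19.1, 18.3 and 20.1 CPM in ND ileum. Only D3M rat K3980 (16.3 CPM) and ND rat K4028 (15.6 CPM) crossed. The means were 11.5 ± 2.74 CPM in D3M and 18.5 ± 1.57 CPM in ND (SD, n = 6 each), with a fold change of -0.84 (SE 0.21, FDR 0.0189 by edgeR). The receptors Cxcr4 and Ackr3 had fold changes of -0.53 (SE 0.97) and -0.26 (SE 0.13), neither called.

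Within flow cells, the sequencing runs that the fit includes as a term, both genes kept their order where a comparison could be made. In flow cell 3, Ccl11 had 2.82 to 3.06 CPM in 2 D3M ilea and 15.4 to 21.0 CPM in 2 ND ilea, and Cxcl12 had 7.80 to 10.9 CPM in those D3M ilea and 15.6 to 19.1 CPM in those ND ilea. Those ND ilea were of rats K4028 and K4040, and the mixed ileum of K4040 held the higher value of both genes (21.0 and 19.1 CPM). Those D3M ilea were of rats P780 and P762, the latter being the D3M ileum that stood apart in colonic identity genes. The order in flow cell 3 thus rests partly on libraries with RNA of the other tissue. In flow cell 1, 4 D3M ilea had 4.62 to 14.6 CPM of Ccl11 and 10.6 to 16.3 CPM of Cxcl12, and the only ND ileum had 15.5 and 20.1 CPM. Flow cell 2 held no D3M ileum. Without its libraries neither gene was called, at -1.63 (FDR 0.0533) for Ccl11 and -0.71 (FDR 0.0863) for Cxcl12.

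Both Ccl11 and Cxcl12 are made largely by fibroblasts, and the fibroblast markers were lower as well. Of 9 markers, Dpt, Mfap5 and Col1a1 were lower in D3M ileum (-0.96, -1.46 and -0.92) and Fbln1 was higher (0.40), with 8 of 9 negative and a median of -0.64. Their summed level was 627 to 895 CPM in D3M ileum and 703 to 1265 CPM in ND ileum. With the mean log2 level of these markers as a covariate, an alternative chosen after seeing the data, Ccl11 had -1.22 (FDR 0.107) and Cxcl12 -0.43 (FDR 0.226), and neither was called. Fewer of all genes were called in that fit as well. Since 8 of the 9 markers were themselves negative here, the fit cannot separate their part, which was not tested. With only the libraries of D3M and ND rats in the fit, Ccl11 was not called (-1.95, FDR 0.0704). Without the mixed ileum and that of D3M rat P762, Ccl11 had -1.53 (FDR 0.0991) and Cxcl12 -0.81 (FDR 0.0806). The calls also depended on single rats: without D3M rat P762 the FDR was 0.0553 for Ccl11 and 0.0507 for Cxcl12, without D3M rat P780 0.0511 and 0.0531, and without D1M rat K3986 that of Cxcl12 was 0.0577.

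**Figure D4:**
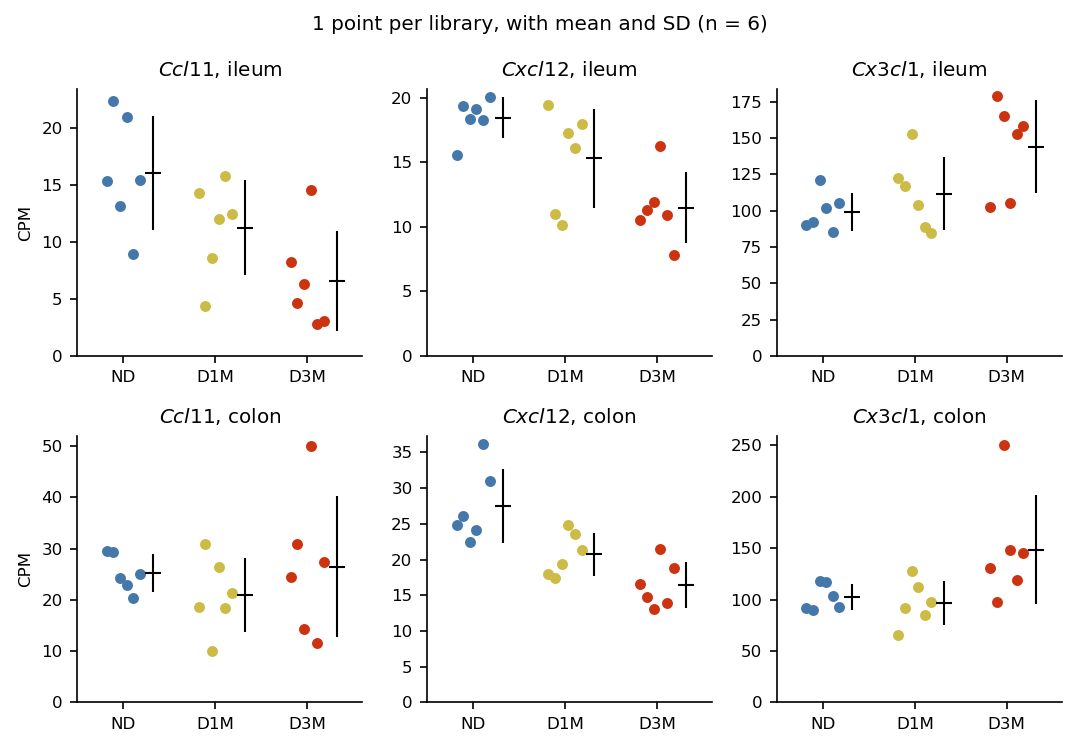
Level of Ccl11, Cxcl12 and Cx3cl1 (vertical axis, CPM) in each library of ND, D1M and D3M rats, in ileum (top) and colon (bottom), with the mean and SD of 6 libraries beside the points. In ileum the mean of Ccl11 was 16.1 in ND, 11.3 in D1M and 6.60 CPM in D3M rats, while in colon the 3 groups overlapped.

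Cx3cl1 and Ccl7 came next in ileum. Cx3cl1, which is displayed on epithelium and endothelium and is read by Cx3cr1, had 103, 179, 165, 106, 153 and 158 CPM in D3M, against 90.4, 92.0, 121, 102, 85.3 and 105 CPM in ND ileum. Its fold change of 0.50 (SE 0.19, FDR 0.0873) was not called, though 4 of 6 D3M rats were above every ND rat. It was called by DESeq2 (FDR 0.0460) and without the flow cell term (FDR 0.0276). In 12 of 14 alternatives Cx3cl1 stayed uncalled, with an FDR of up to 0.374. With single libraries left out its FDR ran from 0.0394 to 0.181, and 3 of 18 fits called it. Ccl7 had 0.341, 0.499 and 0.874 CPM in D3M ileum (lowest, median and highest) and 0.606, 1.41 and 2.00 CPM in ND ileum (-1.02, SE 0.40, FDR 0.102). The gut homing members Ccl25, Ccr9, Ccl28 and Ccr10 had fold changes from -0.35 to 0.18 in ileum, none called, and Ccl25 averaged 1064 ± 221 CPM in D3M and 920 ± 125 CPM in ND (SD, n = 6 each).

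In the ileum of D1M against ND rats no member was called, beside 0.0154% of all genes. By edgeR 3 of 31 members had an unadjusted p under 0.05, beside 1087 of all 13026 genes. These were Ccl2 at 0.83 (FDR 0.568), Cxcl9 at 0.61 (FDR 0.573) and Ccl11 at -0.87 (FDR 0.595), and DESeq2 called none. Ccl2 had 3.45, 5.37 and 9.60 CPM in D1M and 1.86, 3.55 and 4.94 CPM in ND ileum, and Cxcl9 had 2.36, 5.14 and 6.41 CPM in D1M and 2.69, 2.93 and 4.26 CPM in ND ileum (lowest, median and highest). Both pairs of groups overlapped.

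D3M and D1M rats were of nearly the same age and differed in the length of diabetes. Every D3M rat also weighed less than every D1M rat, and fasting glucose was higher in D3M rats, with some overlap. These differences cannot be told apart from the length of diabetes. In the ileum of D3M against D1M rats no member was called, beside 2.22% of all genes (289 genes), and DESeq2 called none. That number of genes rested on single libraries, being 20, 10, 6 and 61 without D1M rats K3978, K3988, K3989 and K3990, 22, 153, 145 and 74 without D3M rats K3961, K3977, K3980 and P780, and 761 without D3M rat K3959. By edgeR 2 of 31 members had an unadjusted p under 0.05, beside 2490 of all 13026 genes. Of these 2, Cxcl12 differed by -0.50 (SE 0.18, FDR 0.146) and Ccl11 by -1.0 (SE 0.38, FDR 0.163). Cxcl12 averaged 11.5 ± 2.74 CPM in D3M and 15.3 ± 3.84 CPM in D1M ileum (SD, n = 6 each). The members' median was -0.18, with 23 of 31 negative, beside -0.04 over all genes.

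In colon no member passed FDR 0.05 for D3M against ND, beside 0.0155% of all 12906 genes (2 genes), while 1 passed the liberal FDR of 0.2 that the study also used in colon, beside 0.186% of all genes. This was Cxcl12, with 16.6, 14.7, 13.1, 21.4, 13.9 and 18.8 CPM in D3M and 24.8, 26.0, 22.4, 24.2, 36.2 and 31.0 CPM in ND colon. Every D3M rat was below every ND rat, and the means were 16.4 ± 3.20 CPM in D3M and 27.4 ± 5.18 CPM in ND (SD, n = 6 each; fold change -0.74, SE 0.15, FDR 0.141). The direction held within both flow cells that had both groups, with 13.1 to 18.8 CPM in 4 D3M and 31.0 to 36.2 CPM in 2 ND colons of flow cell 2, and 14.7 to 21.4 CPM in 2 D3M and 24.8 to 26.0 CPM in 2 ND colons of flow cell 3. The ND colons of flow cell 3 included the mixed colon of rat K4028, at 24.8 CPM.

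The FDR of colonic Cxcl12 depended on the fit. It was 0.00551 by DESeq2 and 0.0260 with D1M libraries left out, and 0.321 without the 2 mixed libraries (fold change -0.77), 0.814 without flow cell 2 (fold change -0.34) and 0.987 with the fibroblast markers as a covariate (-0.57). All 9 fibroblast markers had negative fold changes in colon, 2 of them called (Col1a1 -1.0 and Col3a1 -0.96), with a median of -0.48 and a summed level of 650 to 1071 CPM in D3M and 1022 to 1955 CPM in ND colon. Their part in the Cxcl12 difference was not tested.

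By edgeR 8 of 32 colonic members had an unadjusted p under 0.05 for D3M against ND, beside 1292 of all 12906 genes. Of the 8, 7 had negative values, and DESeq2 called 3 members (Cxcl12, Cxcl14 and Ccl25). Cxcl14 had 49.8, 81.6 and 99.5 CPM in D3M and 81.6, 108 and 146 CPM in ND colon (-0.59, SE 0.14, FDR 0.246). Cx3cl1 had 131, 98.0, 250, 148, 119 and 145 CPM in D3M and 92.1, 90.2, 118, 117, 103 and 92.6 CPM in ND colon (0.54, SE 0.19, FDR 0.375), so that 5 of 6 D3M rats were above every ND rat. Ccr1 (-0.56, FDR 0.457), Ackr3 (-0.36, FDR 0.448), Ccl24 (-0.90, FDR 0.448) and Cxcr3 (-0.74, FDR 0.496) were the others beside Ccl25. The fold change of Ccl25, -4.70 (SE 1.80, FDR 0.402), rested on ND rat K4028: without it ND colon averaged 2.74 ± 1.72 CPM (SD, n = 5), against 0.719 ± 0.428 CPM in D3M colon (SD, n = 6).

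The colonic members had a median of -0.44 (9 positive, 23 negative), beside -0.01 over all genes. Lymphocyte markers had negative values in the same comparison, with medians of -1.13 over 11 B cell and -1.09 over 11 T cell markers, 0 called in either list by edgeR, and 0 and 2 of them at an unadjusted p under 0.05. Their part in the members' values was not tested.

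For D1M against ND colon, and for D3M against D1M colon, no member was called, beside 0% of all genes in each comparison. In D1M against ND, 2 members had an unadjusted p under 0.05 by edgeR, beside 602 of all 12906 genes. These were Cxcl12 (-0.40) and Ccr1 (-0.56), at an FDR of 0.952, and DESeq2 called no member. Ccr1 had 0.656 to 0.873 CPM in D1M and 0.886 to 1.54 CPM in ND colon, with no overlap. In D3M against D1M, 4 members had an unadjusted p under 0.05 by edgeR, beside 682 of all 12906 genes. These were Cx3cl1 at 0.63 (FDR 0.880), and Cxcl14 at -0.37, Ccl2 at -1.24 and Cxcl12 at -0.34 (FDR 0.945 each), and DESeq2 called none. Colonic Ccl2 had 3.53, 3.95 and 6.50 CPM in D3M and 3.52, 8.63 and 18.4 CPM in D1M rats (lowest, median and highest).

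Whether the D3M against ND difference itself differed between the tissues was tested as an interaction, ileum minus colon. No member passed FDR 0.05, beside 1.56% of all genes, and DESeq2 called 2 (Ccl11 and Ccl25). By edgeR 3 of 33 members had an unadjusted p under 0.05, beside 2303 of all 13697 genes. Ccl11 was closest at -1.94 (SE 0.52, FDR 0.0512), from -1.87 in ileum and 0.12 (SE 0.25, FDR 0.902) in colon, where it had 24.4, 30.8, 14.3, 50.0, 11.6 and 27.4 CPM in D3M and 29.4, 29.4, 24.3, 22.9, 20.3 and 25.0 CPM in ND rats. It was near the threshold, at FDR 0.00570 by DESeq2, 0.185 with the rat as a block and 0.214 without the 2 mixed libraries. The other 2 members, Ccl25 (4.88, FDR 0.108) and Ccl24 (1.16, FDR 0.147), had the ND library of rat K4028 as their highest colon library, and had 1.86 (FDR 0.133) and 0.70 (FDR 0.511) without the 2 mixed libraries. Cxcl12, at -0.84 in ileum and -0.74 in colon, differed between the tissues by -0.05 (95% interval -0.57 to 0.46).

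Several members varied with how much B cell RNA a library held. The B cell score of a library is the mean log2 CPM of 15 B cell markers. It was 3.32 to 6.13 in 5 colon libraries and -0.73 to 0.62 in the other 13, and 4.76 to 6.23 in 6 ileum libraries and -0.50 to 1.37 in the other 12. The high-score libraries came from 2 ND, 1 D1M and 2 D3M colons and from 3 ND, 2 D1M and 1 D3M ilea. In every high-score library of colon, Ccl19, Ccl21, Ccr6 and Cxcr4 were above every other colon library, which was so for 4 of 32 members. In ileum it was so for these 4 and for Ccl9 and Ccl4, 6 of 31 members. How many of all genes separate in this way was not counted, so these numbers do not set the members apart.

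Ccl19 and Ccl21, ligands made by stromal and endothelial cells of lymphoid tissue, were among these. Ccl19 had 12.0 to 110 CPM in the 5 high-score colons, against 0 to 1.17 CPM in the other colons, and 4.99 to 31.7 CPM in the 6 high-score ilea, against 0 to 0.424 CPM in the other ilea. Ccl21 had 149 to 455 CPM in high-score colons, against 25.5 to 143 CPM in the others, and 59.5 to 268 CPM in high-score ilea, against 3.59 to 40.8 CPM in the others. Cxcr4, carried by most lymphocytes, had 18.7 to 124 CPM in high-score colons, against 7.60 to 17.8 CPM in the others, and 31.6 to 105 CPM in high-score ilea, against 5.55 to 12.0 CPM in the others.

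Ccr6, carried by B cells and by T cells of the Th17 type, had 1.73 to 7.48 CPM in high-score colons, against 0.190 to 1.44 CPM in the others, and 3.08 to 8.10 CPM in high-score ilea, against 1.04 to 1.83 CPM in the others. Ccl9, which is known in mouse from the epithelium over Peyer's patches, had 13.4 to 35.0 CPM in high-score ilea, against 0.362 to 3.41 CPM in the others. In colon its high-score and other libraries overlapped. Cxcl12, grouped with these members by role, overlapped in both tissues as well. The groups differ in how many high-score libraries they hold, and among libraries with a low score the ND, D1M and D3M ranges of Ccl19, Ccl21, Cxcr4, Ccr6 and Ccl9 overlapped, except for ileal Ccl9, which had 1.81 to 3.41 CPM in 4 D1M and 1.29 to 1.51 CPM in 3 ND libraries. For ileal Ccl21 they were 18.5 to 27.8 CPM in ND, 16.5 to 29.0 CPM in D1M and 3.59 to 40.8 CPM in D3M rats.

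**Figure D5:**
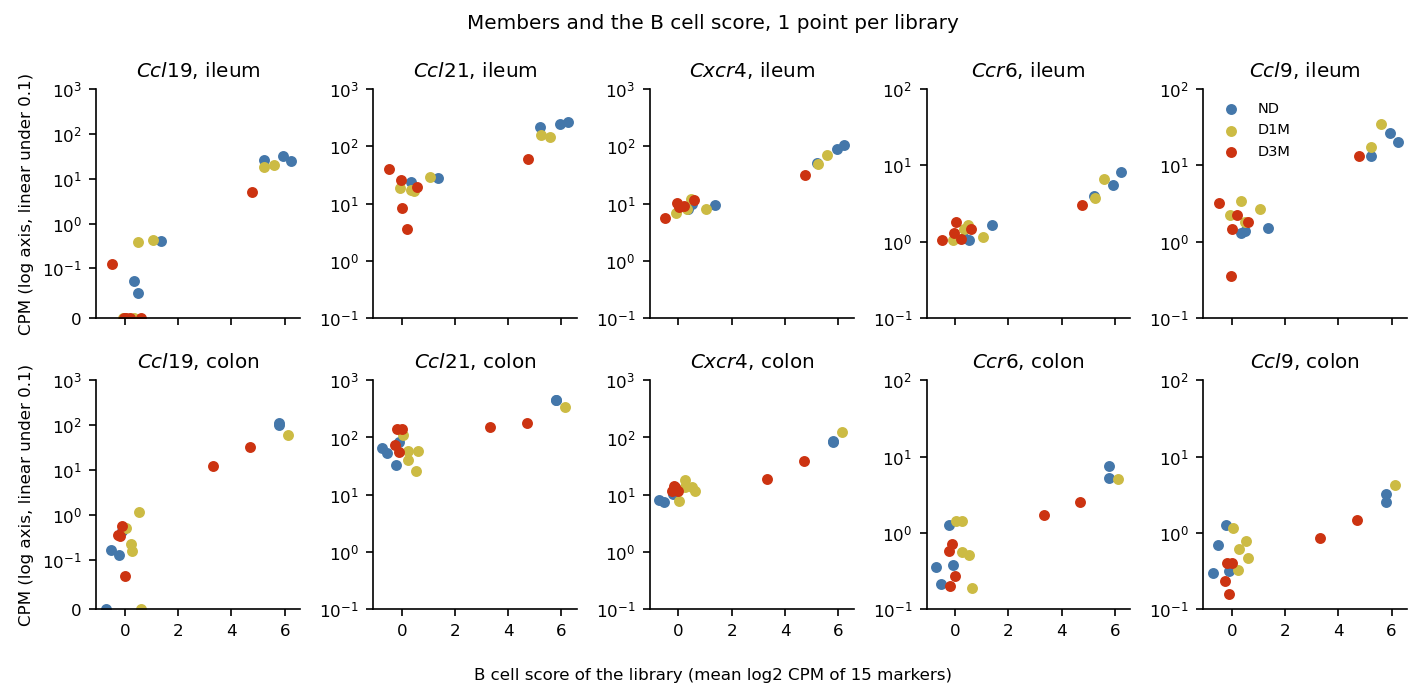
Level of Ccl19, Ccl21, Cxcr4, Ccr6 and Ccl9 in each library (vertical axis, CPM, log scale that turns linear under 0.1) against the B cell score of that library (horizontal axis, mean log2 CPM of 15 markers), in ileum (top) and colon (bottom). The libraries fall into a low and a high cluster, and each cluster holds ND, D1M and D3M rats.

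The genes around the chemokines were read from 3 lists. Among chemokine relatives and processing genes, 5 of 18 tested were higher and 0 lower in D3M than ND ileum (27.8% called, beside 12.5% of all genes), with a median of 0.20 beside -0.08 over all genes. Dpp4, an enzyme of the brush border that trims chemokines such as Cxcl12 and Ccl11, averaged 1500 ± 184 CPM in D3M and 779 ± 157 CPM in ND ileum (SD, n = 6 each; 0.85, SE 0.15, FDR 0.00323), and the groups did not overlap. The peptidase Anpep was higher by 0.93, the carboxypeptidase Cpn1, which also trims chemokines, by 2.11, the heparan sulfate enzyme Ndst1 by 0.89, and Cd74, a receptor of the chemokine-like factor Mif, by 0.64 (FDR 0.00557, 0.0385, 0.0256 and 0.0425). Anpep and Dpp4 are also general enzymes of the absorptive epithelium. Of 7 tested epithelial markers 2 were higher and 1 lower, with 6 of 7 positive and a median of 0.27. Their summed level was 20779 to 28371 CPM in D3M and 14304 to 19577 CPM in ND ileum, with no overlap. The TMM factors also lay apart, at 0.771 to 0.949 in D3M and 0.972 to 1.14 in ND ileum. A lower factor gives a higher CPM, and the absence of overlap in the summed level depends on this scaling. The part of epithelial content in the values of the processing genes was not tested.

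Among chemokine receptor signalling genes, 4 of 36 were higher and 2 lower in D3M than ND ileum (16.7% called, beside 12.5% of all genes), with a median of -0.16. Stat3, Rac1, Ptk2b and Gnb1 were higher by 0.56, 0.57, 0.43 and 0.30, and the G-protein regulator Rgs10 was lower, at -0.50. Among lymphocyte homing adhesion genes 0 of 16 were called by edgeR (median -0.47), and 1 had an unadjusted p under 0.05, beside 3867 of all 13026 genes. Against D1M rats, Rgs10 was lower (-0.50, FDR 0.0244) and Anpep (0.70, FDR 0.0376) and Dpp4 (0.55, FDR 0.0402) were higher in D3M ileum, and no other gene of the 3 lists was called. Values of the list genes under the alternatives were not examined, in this or the other comparisons. The number of all genes called in D3M against D1M ileum rested on single libraries, as given above. In colon 0 of 34 signalling, 0 of 15 adhesion and 0 of 18 processing genes were called for D3M against ND by edgeR. Of these, 8, 3 and 4 had an unadjusted p under 0.05, beside 1292 of all 12906 genes.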

How the data were processed

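TruSeq stranded mRNA libraries were prepared from whole-tissue RNA and run on a NextSeq 500 in 3 flow cells. The authors aligned reads with STAR (version not given in the sources used here) to rn6 and made counts per annotated gene in SeqMonk, which are deposited without normalization. The strand and multi-mapping settings of the counting are not given in the sources used here. The 36 columns of standard deviations in that table and the 72 columns of a second table were not used. Groups, rats and flow cells came from the labels.

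Genes were kept by filterByExpr, scaled by TMM and tested in edgeR 4.0.16 (quasi-likelihood, robust, legacy method; R 4.3.3, limma 3.58.1), with the group and the flow cell in each tissue, and the tissue comparison and interaction in a fit of the 36 libraries. FDR is the Benjamini-Hochberg adjusted p over all genes tested, with a threshold of 0.05, and also 0.2 in colon for D3M against ND, as in the study. SE is the fold change divided by the root of F. The median over genes of the gene-wise biological coefficient of variation came to 0.186 (ileum) and 0.192 (colon). No label says that the 6 rats of a group came from separate litters or cages. The fits were checked on simulated data.

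Named with values were members called in any group comparison of a tissue or in the interaction, the 3 of smallest p in each group comparison, the 6 most positive and 6 most negative called between the tissues whose mean log2 CPM was 0 or more, the 6 of highest mean CPM in each tissue, Cxcl12 and ligand-receptor pairs. Other members and markers given with values were chosen after their values were seen. The members and the gene lists were chosen with earlier results of these data known. Each rat gave both tissues, which pairs the libraries by design. The correlation of a rat's deviations from the group means in the 2 tissues, over 12408 genes, ran from -0.52 to 0.76 (median -0.03) and was above 0.1 in 6 of 18 rats. Alternatives were other scalings, filters and tools (DESeq2 1.42.0, voom), fits without the flow cell term, with the rat as a block, with the B cell score as a covariate or without some libraries, and, added after seeing the data, the fibroblast score as a covariate and a fit without 3 libraries that held RNA from the other tissue. All 46 symbols matched RefSeq, and 36 had a promoter in its GRCr8 table. The others were Ccl11, Ccl2, Ccl3, Ccl4, Ccl5, Ccr10, Ccr4, Ccr8, Ccr9 and Cxcl3. Figures were drawn with matplotlib 3.10.9. A result of 1 gene of the lists is not reported here.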

Additional observations from a re-analysis of the deposited data

Results flagged for a closer look

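Single libraries stood apart from the other 5 of their group, by a gap to the next library past Dixon's criterion at 95%, in 20 of the 189 member and group combinations tested (10.6%). The criterion flags about 1 in 20 only for independent values with a normal spread. CPM were taken unlogged here and several flags share a library, so 10.6% cannot be read as an excess over that rate. Of the 20 combinations, 11 concern members picked for naming by the comparisons of groups or tissues, and are given last. Among the others was Ackr3 in the D3M ileum of rat K3961 (35.8 CPM, next 29.6). The rest were Ccl19, Ccl21, Ccr6 and Cxcr4, highest in single libraries of high B cell score. Those libraries were the D1M colon of rat K3989 (such as Ccl19 at 59.9 CPM, next 1.17), the D3M colon of rat P762 and the D3M ileum of rat K3959. In the ND colon of rat K4028, which also held 8191 CPM of Fabp6, the highest values were 358 CPM for Ccl25 (next 5.12), 14.4 CPM for Ccl24 (next 6.04), 24.6 CPM for Ccl28 (next 15.5) and 15.5 CPM for Ccl5 (next 7.94). In the D1M colon of rat K3989, which had the highest B cell score in colon (6.13), Ccl25 was at 4.90 CPM (next 2.33) and Ccl9 at 4.27 CPM (next 1.15), while Cxcl14 was lowest at 70.7 CPM (next 94.5). In D1M colon, Ccl28 was at 32.7 CPM in rat K3978 (next 18.5). In D3M rats, Ccl5 was at 16.5 CPM in the colon of rat K3959 (next 8.67), Cx3cl1 at 250 CPM in the colon of rat K3977 (next 148), and Ccl9 at 13.4 CPM in the ileum of rat K3959 (next 3.25), the only D3M ileum with a high B cell score.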

How the results depend on the processing

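Over the named genes in the alternatives that gave them a value, 1020 refits kept the direction and the side of the threshold, 31 lost a call, 20 gained one and 1 reversed: colonic Ccl11 in D3M against ND had -0.063 without D3M rat K3980 and up to 0.23 with other single libraries left out. The 2 ileal members called in D3M against ND became 0 with the fibroblast score as a covariate and 0 without flow cell 2, 0 without the mixed ileum and that of rat P762, 1 with only the 2 groups compared (Cxcl12, with Ccl11 lost), 4 without the flow cell term (adding Ccl7 and Cx3cl1) and 0 to 3 with single libraries left out. The number of all genes called there ran with these settings too, at 755 with the fibroblast score, 561 without flow cell 2, 185 with only the 2 groups, 1024 without the 2 mixed libraries, 776 without these and the ileum of P762 and 3007 without the flow cell term, against 1632. For D3M against D1M ileum DESeq2 called 989 and voom 787 of all genes, against 289, and 6 to 761 were called with single libraries left out, for D3M against ND colon DESeq2 called 72 and the fit of 2 groups 315, against 2, and for the interaction the fit without flow cell term called 761 and that without flow cell 2 called 7, and that without the mixed libraries and the ileum of P762 called 35, against 214. In D3M against D1M ileum, leaving out single libraries gave 0 to 1 members (Ccl6, without D3M rat K3959). For D3M against ND colon at FDR 0.05, DESeq2 called 3 members, the fit of only 2 groups 1, and single libraries left out gave 0 to 1. At FDR 0.2 the 1 member became 4 by DESeq2, 3 by voom, 2 with upper quartile scaling, 13 with only the 2 groups, 0 with the fibroblast score, 0 without flow cell 2, 0 without the 2 mixed libraries and 0 to 6 with single libraries left out. For the interaction, DESeq2 called 2 members and voom, the newer edgeR method, the B cell score, the fibroblast score and the fit without flow cell term 1 each, and leaving out single rats gave 0 to 1. With the rat as a block 23 members differed between the tissues and 0 in the interaction (0 of all genes), and the tissue calls lost were Ccl2, Cx3cr1 and Cxcl9 and that gained was Ccr6. The tissue count was 21 to 26 with single rats left out and 20 with the fibroblast score, and Ccl2, Ccl17, Cx3cr1, Cxcl9, Cxcr3, Cxcr6 and Xcl1 each lost the call in at least 1 alternative. The causes of these shifts were not tested. The filter on low counts left out 13 members, and without it 45 were tested and 32 called between the tissues. The share of all genes called without the filter is not given here, so that number does not set the members apart.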
